A study of Canis lupus familiaris with 33 samples.

Results

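Methylated regions of the dog kidney were described by setting the kidney peak list of an MBD-seq experiment against the lists of 10 other tissues. MBD-seq captures sheared DNA on beads that carry a methyl-CpG-binding domain, and a peak marks a stretch where captured fragments pile up. The peaks of all 11 lists on the 38 autosomes were merged wherever they overlapped or touched, which gave 450785 union regions. Kidney had a peak in 278771 of them, or 61.8%. These regions were divided by presence alone and, where all 11 tissues had a peak, by the level in kidney against the other tissues.

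The tissues came from healthy adult beagles, described as 1 male and 2 female animals, with no treatment or genotype groups. The sample titles, however, carry 4 animal identifiers, and how they match the 3 animals is not stated. Beside kidney there were stomach, colon, liver, pancreas, spleen, lung, mammary gland, ovary, cerebrum and cerebellum. Each tissue had 2 MBD libraries and 1 input library of uncaptured DNA. The kidney MBD libraries came from 1 female and 1 male dog, and the kidney input came from the same female dog. DNA of about 300 bp was captured and eluted with 600 and 800 mM salt. The input of mammary gland, ovary and pancreas was also from that female, and that of the other 7 tissues was from dog jj8. Dog jj8 is the male of the kidney MBD libraries, but is labelled female in its inputs. Both MBD libraries were labelled female in mammary gland, ovary, colon and stomach, with a second female identifier in mammary gland and ovary and the identifier jj82 in colon and stomach. The other 6 tissues had 1 female and 1 male library, like kidney. The MBD libraries of a tissue share 1 deposited list. A tissue therefore has no spread between replicates in these data. No difference of kidney from the other tissues was tested in any region, and kidney is given as a rank among the 11 tissues. Only an outlier criterion on whole-tissue values was applied, and it is given near the end.

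Methylation of cytosine is found at most CpG pairs of a mammalian genome, is placed and copied by DNA methyltransferases, and is typically missing from active promoters and many active enhancers. The kidney filters blood in glomeruli and recovers water, salts and nutrients along tubules, whose proximal cells make up much of the organ. A whole-tissue sample mixes these epithelial cells with vessels, connective tissue and blood. Less methylation in every cell and none in a fraction of the cells cannot be told apart in such a sample. No gene model of the build of the lists was at hand, so regions are given by position (CanFam3.1) without a gene, and the tissue label could not be checked against the genes of kidney cells.

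The kidney list held 296906 autosomal peaks, which ranked 3 of 11 and covered 191.6 Mb. The median kidney peak was 359 bases wide, level with cerebrum as the widest of the 11 tissues. The median deposited fold of a kidney peak was 6.57, rank 7, and the median −log10 p was 24.9, rank 4. The median fold of the other lists ran from 6.19 in lung to 8.80 in stomach. For this reason a fold is given below as a relative fold, the deposited value divided by the median of its own list, so that 1 is a typical peak of that tissue. The number of reads behind a list is unknown.

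Most kidney peaks lay in regions that many tissues share. Of the regions with a kidney peak, 121527 (43.6%) had a peak in all 11 tissues. The share of regions that included kidney was 4.97% where 1 tissue had a peak, 19.6% where 2 had one, 69.6% where 6 had one and 95% where 10 had one. Kidney was alone in 4079 regions, which was 0.905% of all union regions and 1.46% of its own. Kidney alone was missing from 2002 regions, or 0.444% of all union regions. Among the 121527 regions with a peak in every tissue, 370 (0.304%) were called higher in kidney, with a relative fold above all 10 others and at least 2 times their median. In the other direction 1059 shared regions (0.871%) were called lower, below all 10 others and at least 2-fold under their median.

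Set beside the other tissues, kidney stood near the middle for presence and low for lower calls. Its number of regions found in 1 tissue alone ranked 4, after cerebellum (35014), ovary (26411) and liver (4500), and pancreas had the fewest (418). Its number of regions missing from 1 tissue alone ranked 8, between mammary gland (2059) and liver (1914), with cerebellum at 13152 and stomach at 1414. The 370 higher calls also ranked 8. The 1059 lower calls were the fewest of the 11 tissues, with lung next at 1140 and cerebellum highest at 8973. This last rank depends on the lists compared: kidney ranked 9 with the 50% of each list of highest fold (94 calls), 10 with equal list sizes (643) and 9 with folds divided by the median over shared regions (1355). Over the alternatives that keep 11 lists the rank ran from 6 to 10 for kidney-lacking regions and from 5 to 10 for higher calls.

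**Figure D1:**
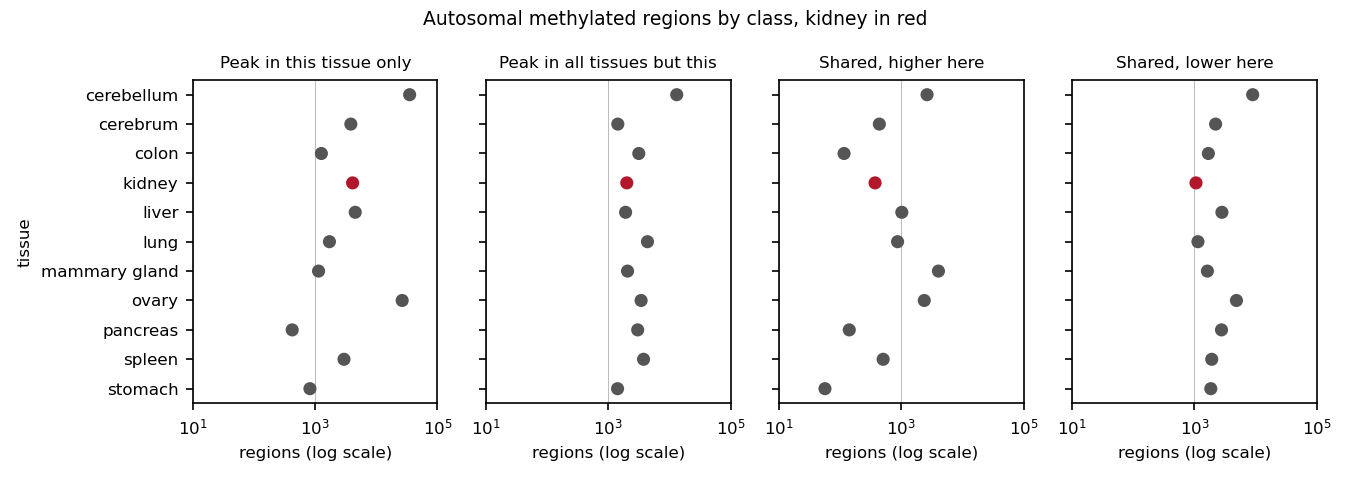
Number of autosomal regions in each class (log scale) for each of the 11 tissues, 1 point per tissue, with kidney in red. Kidney has 4079 regions of its own, 2002 that it alone lacks, 370 shared regions called higher and 1059 called lower, the last being the leftmost point of its panel with the lists as deposited.

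The regions with a peak in kidney alone were short and weak. Their median width was 257 bases, from 218 to 972, and each held a single kidney peak. Their relative fold had a median of 0.626, with the lowest at 0.297 and the highest at 1.36. Only 35 of the 4079 (0.858%, 95% Wilson interval 0.618 to 1.19) reached the median of the kidney list. Their median −log10 p was 10.2, against 24.9 for all kidney peaks. Such weakness was not particular to kidney, since the median relative fold of the regions found in 1 tissue alone lay between 0.520 in stomach and 0.670 in ovary. The strongest kidney-only region was weaker than the strongest one of 9 other tissues, with only lung lower at 1.31, and mammary gland reached 3.05.

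The 5 kidney-only regions with the highest fold had relative folds between 1.20 and 1.36. The first was chr28:13524404-13524878, 475 bases long, with a deposited fold of 8.95 and a −log10 p of 44.9. A peak of another tissue lay 176 bases from it. At chr10:47395548-47395983 the fold was 8.49, and the nearest peak of another tissue was 296 bases away. The region chr16:55993712-55994069 had the same fold of 8.49, with 969 bases to the nearest peak of another tissue. The remaining members were chr23:40630322-40630650 (fold 8.06) and chr10:45728356-45728717 (fold 7.87), with 1135 and 564 bases to that peak. These regions had kidney signal above a typical kidney peak and no listed peak in any of the other 10 tissues, but each had methylated sequence of another tissue within 1135 bases.

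Kidney-only regions lay about as near to peaks of other tissues as the own regions of those tissues did. The median distance to the nearest peak of another tissue was 1055 bases. Such a peak was within 1 kb for 1990 regions (48.8%) and within 10 kb for 3904 (95.7%). For the regions found in 1 of the other tissues alone, the share within 1 kb ran from 38.2% in mammary gland to 60.8% in liver, and that within 10 kb from 93.2% in cerebellum to 98.7% in liver. The closest pair was separated by 5 bases, and 68 regions had a neighbour within 100 bases. On the other side of that boundary, the smallest overlap between kidney peaks and those of a single other tissue was 3 bases. The 2089 kidney-only regions more than 1 kb from any other tissue's peak remain as a narrower set.

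Where kidney shared a region with exactly 1 other tissue, that tissue was most often ovary or cerebellum, the tissues with the most union regions. There were 8901 such regions. Ovary was the partner in 3718, which is 41.8% of those of kidney and 13.8% of those of ovary. Cerebellum was the partner in 2595, 29.2% of those of kidney and 10.6% of those of cerebellum. Liver came next with 795, which is 8.93% for kidney and 12.7% for liver, and pancreas was last with 69. As a share of the partner's own pairs the range was 6.30% in pancreas to 13.8% in ovary, and lung stood at 10.4%.

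The regions that kidney alone lacked were mostly somewhat weaker than a typical peak in the tissues that had them. They join peaks of 10 lists, so their width and level are not comparable with those of kidney-only regions, which hold 1 peak each. Their median width was 368 bases, from 268 to 2533. The median relative fold of the other 10 tissues had a median of 0.927 over these regions, from 0.486 to 1.87. For the regions that another tissue alone lacked, the same median ran from 0.822 (stomach) to 1.09 (cerebellum). In 703 of the 2002 (35.1%) the other tissues' median was at least that of a typical peak. All 10 others were at or above their list medians in 17 (0.849%, 95% Wilson interval 0.531 to 1.36). This share ranked 3, after cerebellum (12.3% of the regions that it alone lacked) and ovary (7.51%), and just above spleen (0.797%), liver (0.731%) and lung (0.618%), which lie inside the interval of kidney. Stomach had 0 of 1414.

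**Figure D2:**
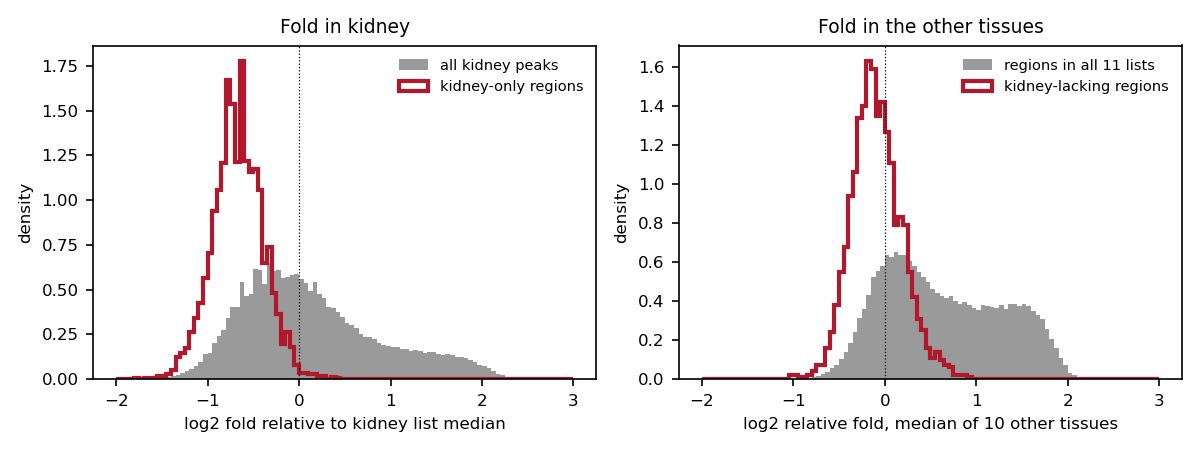
Distributions of log2 relative fold (density, with 0 marking the list median). Left, kidney-only regions (red line) against all kidney peaks (grey): the kidney-only regions lie mostly below 0, with a median relative fold of 0.626. Right, the median of the 10 other tissues in kidney-lacking regions (red line) against regions present in all 11 lists (grey): the kidney-lacking regions centre near 0, with a median relative fold of 0.927 against 1.46.

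The 10 kidney-lacking regions with the highest level elsewhere had others' medians of 1.67 to 1.87. At chr29:21903497-21903913 the other tissues ran from 1.13 in stomach through a median of 1.87 to 2.44 in ovary, and the nearest kidney peak was 9865 bases away. At chr18:1028037-1028446 they ran from 1.34 in stomach to 2.64 in colon with a median of 1.84, and this was the kidney-lacking region whose lowest other tissue was highest. A kidney peak lay 330 bases from it. At chr10:18019106-18019734 the others ran from 1.01 in mammary gland to 2.80 in cerebellum, with a median of 1.82. All 10 other tissues were thus at or above a typical peak of their own list in each of these 3 regions while kidney had no peak in the list.

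At chr1:1182912-1183377 the other tissues ran from 1.14 in cerebellum to 1.95 in stomach, with a median of 1.76. The widest of the 10 was chr7:5870043-5872171, 2129 bases long, where the others covered a median of 1380 bases and ran from 0.816 in ovary to 2.90 in mammary gland. No kidney peak lay within 5305 bases of it. At chr10:28699116-28700243 the others ran from 1.33 in colon to 2.38 in pancreas, with a kidney peak 144 bases away. The other named regions were chr5:5149780-5150652 (others 0.802 to 2.40), chr36:27767621-27768049 (0.917 to 2.55), chr35:7784768-7785359 (0.893 to 1.97) and chr21:35978269-35978669 (1.23 to 2.63). In 6 of these 10 regions all other tissues were at or above their list medians. The nearest kidney peak was within 456 bases of 7 of them and at least 1951 bases from the other 3.

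Many kidney-lacking regions also had a kidney peak nearby. The median distance from a kidney-lacking region to the nearest kidney peak was 1894 bases. A kidney peak lay within 1 kb of 704 (35.2%) and within 10 kb of 1774 (88.6%), and the closest was 55 bases away. For the regions that another tissue alone lacked, a peak of that tissue lay within 1 kb of 22.7% (liver) to 43.8% (ovary). The 1298 regions farther than 1 kb from any kidney peak form a narrower set. Regions missing from exactly kidney and 1 other tissue numbered 3039. The other tissue was cerebellum in 623, lung in 435, ovary in 366 and stomach in 115. As a share of the regions missing from exactly that tissue and 1 other, these were 8.06%, 7.92%, 9.27% and 3.68%, so ovary came first.

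In regions with a peak in every tissue, the kidney level was close to that of the other tissues and slightly above it. The difference, log2 of the kidney relative fold minus log2 of the median of the other 10, had a median of 0.08, rank 2 after lung at 0.12. Its middle 50% of values lay between −0.19 and 0.32, and its standard deviation over regions was 0.398, rank 10, with only stomach lower at 0.395. The position of this median depends on the scaling. When folds were divided by the median over shared regions in place of the whole list, it was 0.03. Kidney was above all 10 others in 9001 shared regions (7.41%) and below all 10 in 6386 (5.25%), and the second count was the lowest of the 11 tissues.

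**Figure D3:**
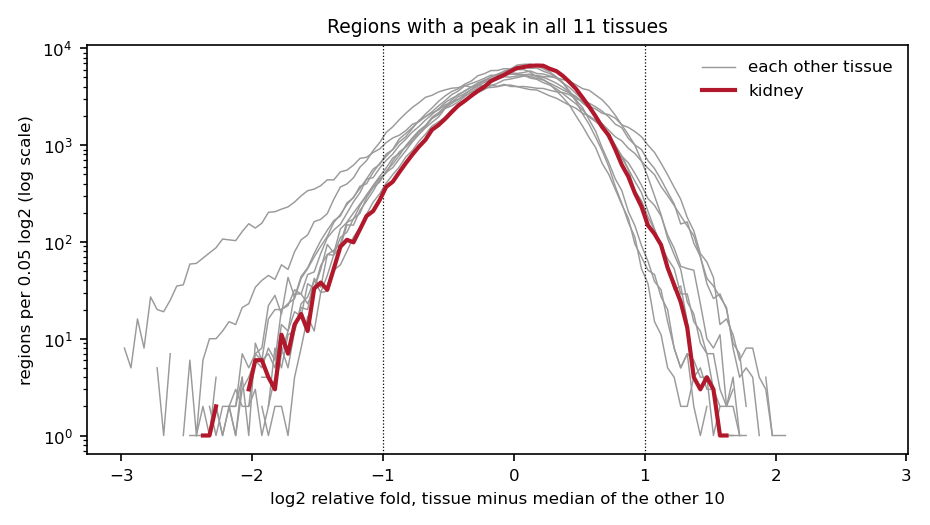
Number of shared regions (log scale) against the log2 difference of 1 tissue from the median of the other 10, with kidney in red and each other tissue as a grey line. Dotted lines mark −1 and 1, beyond which a region outside the range of the other tissues was called: 1059 kidney regions on the left and 370 on the right.

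Lower calls outnumbered higher calls in kidney by 2.86 to 1, and made up 74.1% of its calls. With division by the median over shared regions the counts were 249 higher and 1355 lower, so lower calls made up 84.5%. Under that scaling the rank of kidney for lower calls was 9 instead of 11. In 9 of the 10 other tissues lower calls also outnumbered higher ones, from 1.32 to 1 in lung to 33.1 to 1 in stomach. Mammary gland was the exception at 0.403. Against only the 3 tissues with the input animal of kidney, where fewer tissues have to be passed, 3286 regions were higher and 2051 lower, so higher ones were then more numerous.

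The 1059 regions called lower were as wide as other shared regions, with a median of 784 bases against 798. The other tissues' median had a median of 1.55 and kidney a median of 0.657. The median difference was −1.16, and the kidney peaks covered a median of 492 bases against 572 for the median of the others. Kidney was then compared with the next-lowest tissue of each region, and the median gap was −0.47 in log2 units. The next-lowest tissue was ovary in 169 regions (16.0%), cerebellum in 134 (12.7%) and spleen least often, in 59 (5.57%). Over all 121527 shared regions, ovary was below every other tissue in 19131 and cerebellum in 18294, the most of the 11 tissues. Spleen was so in 9562.

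The lower call with the largest difference was chr3:4403932-4405856. Kidney had a relative fold of 0.559, cerebellum 0.753 and ovary 1.67, and the other 8 tissues lay between 2.42 in stomach and 4.23 in lung. The others' median was 2.91, a difference of −2.38, with cerebellum close above kidney. At chr24:28785778-28786713 kidney had 0.424 while the others ran from 1.65 in cerebrum to 2.75 in mammary gland, with a median of 2.14. This difference of −2.33 left kidney apart from all the others, since the gap to the next tissue was −1.96. At chr17:12190896-12192112 kidney had 0.261, with a −log10 p of 2.48, and the others ran from 0.860 in mammary gland to 2.09 in cerebellum.

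At chr33:5606867-5607645 kidney had 0.515 and the others 1.05 (cerebrum) to 2.92 (spleen), with a median of 2.48. At chr5:67814206-67815530 kidney had 0.493 and the others 1.11 (ovary) to 2.54 (spleen), with a median of 2.16. At chr38:15799901-15801132 kidney had 0.605, the others 1.18 (colon) to 2.99 (lung), and kidney peaks covered 356 bases against a median of 1142. In each of these 3 regions kidney lay well below the lowest other tissue, with log2 gaps of −1.03, −1.17 and −0.96.

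Of the remaining 4, chr1:39938254-39939151 had the highest value of any tissue, with kidney at 0.720 and the others from 1.24 in ovary to 4.81 in mammary gland. At chr17:57699940-57700649 kidney had 0.730 and the others 1.24 in liver to 4.03 in spleen. At chr15:13145750-13146852 kidney had 0.470 and the others 0.702 in liver to 2.66 in spleen. At chr7:1152268-1152945 kidney had 0.459 and the others 1.22 in colon to 2.03 in lung, a narrow range with kidney well outside it. The tissue nearest to kidney thus changed from region to region.

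**Figure D4:**
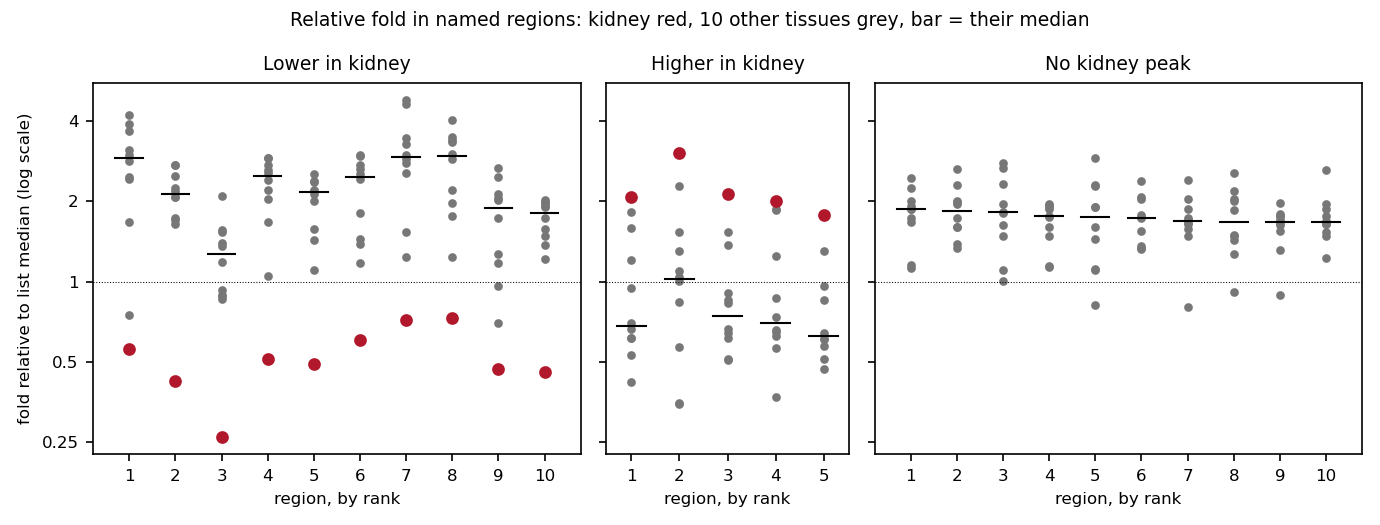
Relative fold (log scale, 1 is the median of each tissue's list) in the 10 regions called lower with the largest difference, the 5 called higher with the largest difference, and the 10 kidney-lacking regions with the highest level elsewhere, each ordered as in the text. Kidney is red, the 10 other tissues are grey, and the bar is their median; kidney lies below every grey point in the left panel, as in region 2 with 0.424 against 1.65 or more, and above every one in the middle panel.

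In the 370 regions called higher, the other tissues' median had a median of 0.919 and kidney one of 2.01. Both enter the rule, so they are a description. The median gap of kidney to the next-highest tissue was 0.31 in log2 units. Liver was that tissue in 90 regions (24.3%), ovary in 62 (16.8%), lung in 60 (16.2%) and stomach in 6 (1.62%). Over all 121527 shared regions, liver was above every other tissue in 11004, ovary in 12460, lung in 16062 and stomach in 5666. Mammary gland (20341) and cerebellum (18551) were so most often, and were next to kidney in 13 (3.51%) and 46 (12.4%) of the regions called higher.

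At chr17:7426771-7427683 kidney had 2.07 and the others 0.419 (pancreas) to 1.82 (liver) with a median of 0.680, a difference of 1.60. At chr30:37293052-37296821 kidney had 3.03 and the others 0.348 (liver) to 2.28 (ovary) with a median of 1.02. Kidney peaks covered 3685 bases of that region and the others a median of 1754. At chr21:7642657-7643201 kidney had 2.14 and the others 0.508 (liver) to 1.54 (cerebellum). Liver was the tissue next to kidney in the first of these regions and the lowest tissue in the other ones.

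The other higher calls of this rank were closer to a second tissue. At chr16:8698777-8699481 kidney had 2.01, liver 1.87 and cerebellum 1.86, and the other 8 lay between 0.370 and 1.25. At chr3:77441749-77442098 kidney had 1.78 and cerebellum 1.77, with the other 9 at 1.30 or less. Neither was above all other tissues when folds were divided by the list mean.

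The threshold divided regions of nearly equal values. Just inside, chr5:32685322-32686288 had kidney at 1.02 and the others' median at 2.04, and just outside, chr15:8757623-8758103 had 0.898 and 1.80. For higher calls the region just inside was chr26:8642327-8642684 with 1.66 against 0.833, and the one just outside was chr9:21368265-21369048 with 1.5 against 0.749.

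Kidney peaks were wide in shared regions. Kidney peaks covered a median of 661 bases of a shared region, against 574 for the median of the others, and the median ratio was 1.11. Kidney covered more bases than the others' median in 104090 of 121527 regions (85.7%), the highest share of the 11 tissues, with cerebrum at 83.4% and ovary at 81.4%. The shortest peak of a list was 218 bases in kidney and ovary and over 200 bases also in cerebrum, lung and mammary gland, and it was 175 to 192 bases in the other 6. Against the 4 tissues on its own side of 200 bases, the kidney width difference was 0.04 in log2 units, compared with 0.14 against all 10.

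Few kidney-only regions formed clusters. A cluster was taken as at least 3 regions of a class with at most 25 kb from one to the next. Of the kidney-only regions 139 (3.41%, 95% Wilson interval 2.89 to 4.01) lay in 44 clusters, rank 7 of 11. The same share was 44.3% in cerebellum, 28.8% in ovary and 13.5% in liver. Without ovary among the tissues compared, kidney had 7930 regions of its own with 8.02% in clusters, and without cerebellum 6722 with 5.21%.

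The 3 largest kidney-only clusters held 4 or 5 regions each. At chr3:56631880-56670656, 38.8 kb with 5 members, kidney had a peak in 11 of the 15 union regions that were not members, against 8 (mammary gland) to 12 (cerebellum). At chr20:1772603-1815846, 43.2 kb with 5 members, it had 13 of 16, against 4 in cerebellum and 14 in cerebrum. The megabase that holds this cluster, from 1 to 2 Mb of chromosome 20, had 11 kidney-only regions, the most of any with chromosome 31 from 35 to 36 Mb. At chr5:41885728-41895724, 10.00 kb with 4 members, kidney had 3 of the 4 other regions, lung 4 and liver 0. At all 3 sites kidney was inside the range of the other tissues once the members were set aside.

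Of the kidney-lacking regions 40 (2.0%, 95% Wilson interval 1.47 to 2.71) lay in 13 clusters, rank 6. The largest, chr30:24335957-24383640, had 4 members over 47.7 kb. The other tissues' medians in its members were 1.13, 0.878, 0.587 and 0.856. Of the 9 regions there that were not members kidney had a peak in 1, as did pancreas, and cerebellum had 8. In that 1 region, shared by every tissue, the difference was −0.69 in kidney and lower in lung, at −0.72. At chr2:56588334-56604702, 16.4 kb with 3 members, kidney had a peak in 4 of the 10 regions that were not members, against 5 in colon and 10 in cerebellum. In those 4, all shared by every tissue, the median difference was −0.84, and the next tissue was spleen at −0.47. At chr5:13901599-13923610 kidney had 4 of the 12 others and mammary gland 3. In the 2 shared regions there the median difference was 0.16 in kidney, and stomach was lowest at −0.35.

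Shared regions called lower formed 5 clusters with 20 members (1.89%), and those called higher formed none. At chr20:52071678-52116409, 44.7 kb, 5 members had kidney at 0.473, 0.628, 0.626, 0.582 and 0.447. The others' medians there were 1.31, 1.85, 1.27, 1.37 and 0.956, and the lowest other tissue was cerebellum in 4 of them and pancreas in 1. Of the 20 other regions of that stretch kidney had a peak in 7, cerebellum in 8 and colon in 16. The level in the members is fixed by the rule, and outside them kidney had 1 peak fewer than cerebellum.

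At chr33:5575129-5607645, 32.5 kb, 4 members had kidney at 0.865, 1.17, 1.30 and 0.515 against others' medians of 2.49, 2.60, 2.69 and 2.48. The last of them is the region of chromosome 33 described above. Of the 13 other union regions of this stretch kidney had a peak in 1, liver in 2 and cerebellum in 10. The cluster at chr4:86600982-86642883 differed from it in presence. Its 4 members had kidney at 0.567, 1.04, 0.748 and 0.772 against 1.77, 2.71, 2.24 and 1.96, while kidney had a peak in 13 of the 15 regions that were not members. Over all shared regions of this stretch, members included, the median difference was −0.36 in kidney and lower in ovary, at −0.56. At the other clusters of lower calls named here kidney had the lowest such median, which the members, low in kidney by the rule, fix in part. Only 6 of 11 shared regions on chromosome 20, 3 of 7 on chromosome 27 and 1 of 5 on chromosome 33 were not members. These medians therefore say little about the stretches beyond the calls. At chr27:6864855-6888183, 23.3 kb, 4 members had kidney at 0.633, 0.446, 0.644 and 1.27 against 1.85, 1.01, 1.65 and 2.62.

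Regions missing and regions lower in kidney were also compared by distance. Of the 2002 kidney-lacking regions, 68 (3.40%) had a region called lower in kidney within 10 kb. The regions that each other tissue alone lacked had such a neighbour in 1.15% (liver) to 2.47% (ovary), and all shared regions in 2.42%. Without the members of clusters of either class, the count was 62 of 1962 (3.16%) for kidney, against 1.01% (liver) to 1.99% (ovary). Both kidney classes come from the same kidney list. The nearness of each other tissue's lacking regions to its own lower calls was not computed. Whether the kidney share is particular to kidney was therefore not tested. Kidney-only regions lay within 10 kb of a region called higher in 36 cases (0.883%), against 0.917% of all shared regions.

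Kidney-only, kidney-lacking and lower regions were found on every autosome. The kidney-only share of the union regions of a chromosome ran from 0.726% on chromosome 37 to 1.15% on chromosome 32. The kidney-lacking share ran from 0.317% on chromosome 18 to 0.714% on chromosome 30, the chromosome of the largest kidney-lacking cluster. No region was called higher on chromosomes 32 and 38, which held only 877 and 1342 shared regions. Over all autosomes 0.304% of shared regions were called higher, so few calls would fall there at that share. The median difference in shared regions was above 0 on each of the 38 autosomes, from 0.04 on chromosomes 33 and 35 to 0.13 on chromosome 20. With folds divided by the median over shared regions it was above 0 on 31 and at or below 0 on 7, from −0.01 to 0.08, so the sign depends on the scaling. It was higher on chromosomes with more union regions per Mb, with a Pearson r of 0.551 and a Spearman rho of 0.559 over 38 chromosomes, which come from the same lists and are given as a description. The same r was 0.711 in colon and −0.746 in cerebellum.

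**Figure D5:**
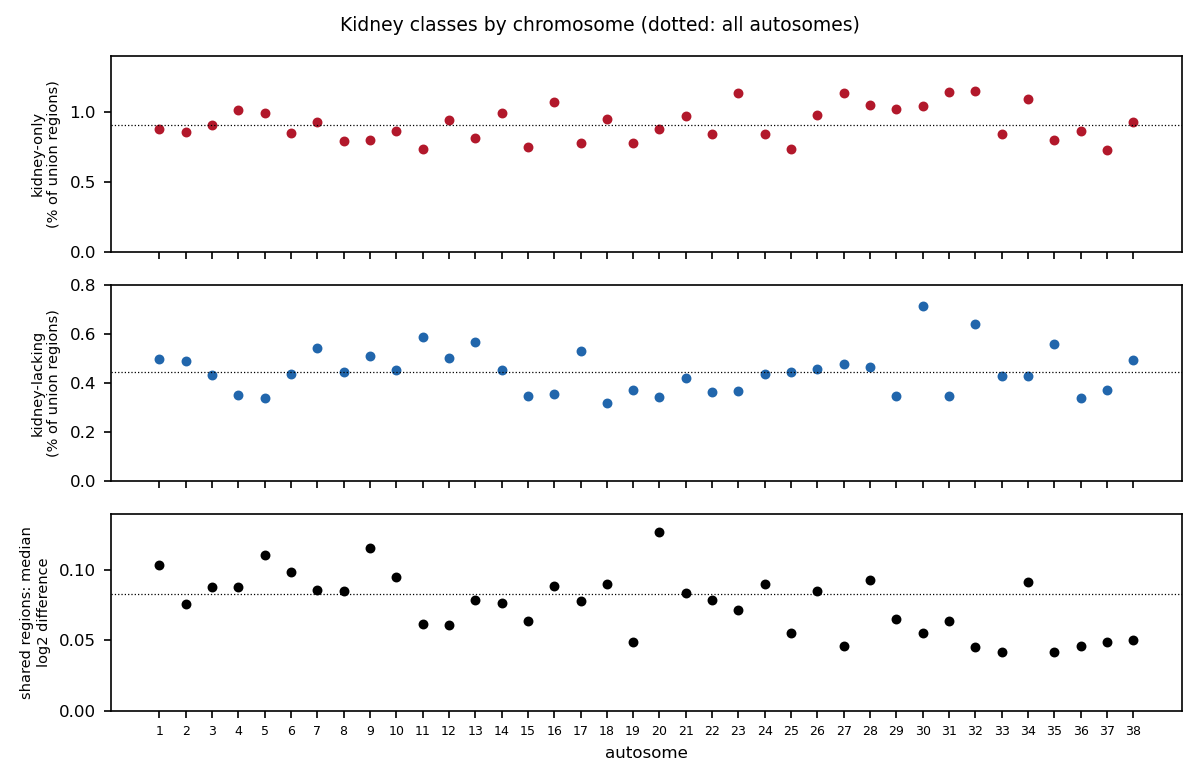
Kidney-only and kidney-lacking regions as a percent of the union regions of each autosome, and the median log2 difference of kidney in shared regions, 1 point per autosome. Dotted lines give the value over all autosomes (0.905%, 0.444% and 0.08); with this scaling the lowest panel lies above 0 throughout, against 31 of 38 autosomes with division by the median over shared regions, and is highest on chromosome 20.

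Kidney-only regions were rarer near the ends of chromosomes than union regions in general. The first 5 Mb of the autosomes held 7.99% of them (95% Wilson interval 7.20 to 8.86) against 10.1% of all union regions, and the last 5 Mb held 10.8% (9.92 to 11.8) against 13.0%. Regions found in cerebellum alone had similar shares, 8.91% and 10.9%. Of the regions called lower, 18.4% lay in the last 5 Mb, near the 17.9% of all shared regions. Of those called higher 10.8% did (8.04 to 14.4). For the higher calls of the other tissues this share ran from 8.70% in colon to 26.4% in mammary gland and pancreas, with liver and stomach at 10.7%, so a low share was not particular to kidney. The kidney level itself hardly differed between the ends and the middle of chromosomes, with a median difference of 0.08 in the first 5 Mb, 0.08 in the last and 0.09 between. The last 5 Mb differed from the middle by −0.0085 in kidney, and the other tissues ran from −0.14 in ovary to 0.12 in mammary gland. Stomach was flatter than kidney, at −0.0042, and pancreas stood at 0.02, so a flat profile was not particular to kidney.

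The genome was also divided into windows of 1 Mb. In windows with at least 20 shared regions, 1341 of 1673 (80.2%) had a median difference above 0, and 1018 (60.8%) did with division by the median over shared regions. The lowest was −0.29, on chromosome 38 from 12 to 13 Mb, and the highest was 0.38, on chromosome 19 from 45 to 46 Mb. The window from 56 to 57 Mb of chromosome 2, which holds a cluster named above, had 8 kidney-lacking regions and 5 lower calls among 451 union regions. That from 86 to 87 Mb of chromosome 4, with the cluster described above, had the most lower calls, 6 among 204 shared regions. The window from 58 to 59 Mb of chromosome 3 had the most higher calls, 5, and no kidney-lacking region. The same absence of kidney-lacking regions held for 1048 of all 2220 windows (47.2%).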

How the data were processed

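MBD-seq was measured in 11 tissues of beagles. The labels' protocols describe capture with MethylMiner beads, and the genome build was CanFam3.1 per the submitters' processing notes. The aligner, the peak caller, its threshold and filters, and how the 2 MBD libraries of a tissue were combined are not given in the sources used here. Each tissue had 1 deposited narrow-peak list, without a header. Its fold column was read from its place in the format as the deposited ratio of signal for each peak, with the control not stated, and the −log10 p-value was used as deposited by the authors. Both belong to single peaks and were used to describe and rank peaks. Depth is unknown, so the precision of a fold is unknown.

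Autosomal peaks of the 11 lists were merged where they overlapped or touched, and a tissue was present in a region with at least 1 base of overlap. Its fold was that of its highest peak there, divided by the median of its autosomal list. A shared region was called when kidney was outside the range of the 10 others and at least 1 log2 unit from their median. The 95% Wilson intervals of shares reflect counting error alone. No p-value was computed, because a tissue has 1 list. Named regions are the 5 kidney-only regions with the highest fold, the 10 kidney-lacking regions highest elsewhere, the 10 lowest and 5 highest calls, the 3 largest clusters and the regions beside each threshold. The fourth cluster of lower calls was added after its values were seen. The regions, classes and rules were chosen with earlier results of these data known. Gene assignment, the check of the tissue against gene lists, and sequence features were not run, because no genome or annotation of CanFam3.1 was used here and the gene table at hand is of another assembly. Alternatives are given in the closing section, and 2 of them (regions with 1 peak in each list, and the 4 tissues with a shortest peak over 200 bases) were added after seeing the data. The code for the calling was run on 20000 simulated regions, where each planted class was recovered. The planted differences lay well past the call threshold, and the simulated noise was smaller than the spread in the real lists. The run therefore checks the code alone and gives no rate of missed or false calls in the real lists. Python 3.11.15 with numpy 2.4.6, pandas 2.3.3, scipy 1.17.1 and matplotlib 3.10.9 was used.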

Additional observations from a re-analysis of the deposited data

Results flagged for a closer look

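Within tissues that share an input animal, the highest and lowest values of each measure were compared with the rest by Dixon's criterion, over 14 groups of values. Chance would pick about 1 in 20 if values were independent and normal, but the counts of the tissues depend on each other. Kidney was picked in none. It was at an end of its group only as the lowest for regions that it alone lacked and for lower calls, so it could not be picked elsewhere. Among the 4 tissues with the input of kidney, ovary stood apart by 26411 regions found in it alone and by the share of these in clusters, 28.8%. Among the other 7 tissues, cerebellum stood apart by 35014 regions of its own, 13152 that it alone lacked, 2627 called higher and 8973 called lower. It also did so by the share in clusters, 44.3% of its own regions and 45.5% of those it lacked. Counts for kidney without either tissue are given with the processing alternatives.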

How the results depend on the processing

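Under the alternatives 64 values of the main results stayed near the main value (counts within 1.5 times, cluster shares within 2.89% to 4.01%, width differences within 0.1435 to 0.1461) and 51 moved. With the 50% of each list of highest fold there were 899 kidney-lacking regions, 47 higher and 94 lower calls, 2.19% of kidney-only regions in clusters and a width difference of 0.0936 (log2). With equal list sizes there were 103 higher and 643 lower calls and a width difference of 0.1329. Counting a tissue as present only at 50% of the region covered gave 167 higher and 685 lower calls and 4.17% in clusters. Against the 3 tissues with the input animal of kidney there were 18348 kidney-only and 9212 kidney-lacking regions, 3286 higher and 2051 lower calls, 22.0% in clusters and a width difference of 0.1105. Against the other 7 there were 8541, 3199 and 614 (lower calls 1549), 9.13% and 0.1538. Against the 4 tissues with a shortest peak over 200 bases there were 10660, 7178, 954 and 1992, 11.3% and 0.0419. A threshold of 0.58 gave 4180 higher and 4308 lower calls. Clusters with gaps of up to 10 and 50 kb held 0.858% and 8.78%. Regions over 1 kb from an opposing peak numbered 2089 and 1298. Leaving out each other tissue in turn gave 4148 to 7930 kidney-only regions (most without ovary), 2117 to 2630 kidney-lacking, 380 to 579 higher (most without cerebellum) and 1072 to 1381 lower calls, 3.47% to 8.02% in clusters and a width difference of 0.1252 to 0.1614. With fewer tissues, fewer lists have to lack or hold a peak and fewer have to be passed, which eases the conditions of each class by construction. Higher and lower calls also use the median of the others, which can move either way. Under the other settings the cause was not tested. Kidney ranked 4 for kidney-only regions under the 4 settings that change presence and keep 11 lists, while its ranks ran from 6 to 10 for kidney-lacking regions, 5 to 10 for higher and 9 to 11 for lower calls. Of the 15 named regions called higher or lower, all were no longer shared by the 11 lists with the 50% of highest fold, 13 with equal list sizes and 9 with 50% of the region covered, so they have no value there. Where a value exists, 271 kept the call, 2 were within the range of the others with division by the list mean, and none changed sign. Leaving out a tissue cannot put kidney back inside the range of the others. No paired analysis was possible because each tissue has 1 list. The gene and sequence alternatives were not run.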

Other observations

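Chromosome X was outside the comparison of autosomes. It held 21367 union regions, of which kidney had a peak in 9660. Kidney alone lacked 308 (1.44%), against 0.444% on autosomes, a ratio of 3.25. This was the highest ratio of the 11 tissues, followed by colon at 1.86 and pancreas at 1.44, with cerebellum lowest at 0.237. Kidney was alone in 48 regions of X (0.225%), against 8.47% for cerebellum and 5.27% for ovary. Grouped by labelled sex, the ratio was 0.350 (ovary), 0.369 (mammary gland), 1.21 (stomach) and 1.86 (colon) in the 4 tissues with 2 female libraries. It ran from 0.237 in cerebellum to 1.44 in pancreas in the 6 tissues that, like kidney, had 1 female and 1 male library. Kidney was above both ranges. Of those 6, pancreas alone had the input animal of kidney, and the rest, with input from dog jj8, reached at most 0.838 (liver). The parts of sex and input animal in these values were not tested and cannot be told apart from that of tissue.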
